A study of Mus musculus with 23 samples.

Results

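Dusp4, Spry2 and Bambi encode feedback inhibitors of growth factor and BMP signalling, and their transcripts were followed here across 8 groups of mouse bone marrow progenitors. The members were the transcript clusters (the array's gene-level features) that the authors' comparison tables pair with one of these symbols. This gave 3 clusters, 1 for each gene, of 65956 clusters on the array that are not controls, and of 524 that the tables pair with exactly 1 symbol. All 3 passed the filter on low values, with a mean log2 value over all arrays at the 85.6th percentile of clusters for Dusp4, the 91.4th for Spry2 and the 73.6th for Bambi.

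The 23 arrays profiled RNA of 2 populations sorted as Lin- ckit+ cells, hematopoietic stem cells (HSC) and the downstream lymphoid-primed multipotent progenitors (LMPP). HSC were Flk2- CD150+ CD48-, and LMPP had the opposite phenotype for these 3 markers. Both were taken from bone marrow of pooled transplant recipients that was wild type (WT), p110α-/- (alphaKO), p110δ-/- (deltaKO) or p110αδ DKO (DKO). Each group held 3 arrays, with 1 female and 2 male samples, except LMPP WT, which held 1 of each. The sources used here do not give the way the alleles were deleted, the strain, the age, or any gate against recipient cells. Nothing in the labels shows that a group's arrays are separate pools of animals, so the p-values reflect only variation among these samples, possibly technical.

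Both p110 proteins are class I catalytic isoforms of PI3K, the lipid kinase that works downstream of cytokine and growth factor receptors beside the RAS-ERK cascade. Feedback inhibitors are commonly induced by the signal that they restrain, so their transcripts are often read as a trace of recent signalling. Dusp4 encodes a nuclear dual-specificity phosphatase that removes the activating phosphates of ERK and related MAP kinases. Spry2 encodes Sprouty2, a membrane-associated adaptor that dampens receptor tyrosine kinase signalling to RAS and ERK. Bambi encodes a transmembrane pseudoreceptor of the TGF-β family that lacks a kinase domain and blocks BMP, activin and TGF-β receptors.

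Array medians lay between log2 4.83 and 5.04 except for LMPP WT replicate 2, at 5.29. Its mean correlation with the other LMPP arrays was 0.961, where theirs ran from 0.980 to 0.986, and HSC WT replicate 3 was lowest among HSC arrays at 0.984, where the others ran from 0.988 to 0.991. Of the marker genes of HSC, 3 of 13 (Vwf, Tek and Selp) could be named, and their mean log2 value was 9.96 to 11.12 on HSC arrays and 7.39 to 8.45 on LMPP arrays. In HSC it was 10.28 to 10.53 in WT, 9.96 to 10.80 in alphaKO, 10.54 to 10.93 in deltaKO and 10.73 to 11.12 in DKO. In LMPP it was 7.39 to 7.58 in WT, 7.59 to 7.97 in alphaKO, 7.68 to 8.22 in deltaKO and 8.35 to 8.45 in DKO. Arrays with and without p110δ overlapped in both cell types. The part of these markers in the p110δ values below was not tested. No LMPP marker could be named, and the targeted PI3K genes were not analysed here. In bulk samples fewer cells of a type and less RNA per cell cannot be told apart.

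Dusp4 and Bambi were higher in HSC than in LMPP, and Spry2 did not pass the test between the cell types. All values are log2 RMA values, so a difference of 1 is a doubling. On the HSC WT arrays Dusp4 measured 10.01, 10.82 and 9.82, and on the LMPP WT arrays 7.68 and 8.48. In alphaKO it measured 10.51, 9.93 and 10.01 in HSC and 9.09, 8.93 and 7.32 in LMPP. In each of the 4 genotypes every HSC array was above every LMPP array, a separation in that direction that 16.7% of clusters showed in WT, 13.1% in alphaKO, 10.6% in deltaKO and 14.5% in DKO.

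Averaged over genotypes Dusp4 was higher in HSC by 1.96 (SE 0.21), a 3.90-fold difference, with an adjusted p of 1.70e-06 (limma, Benjamini-Hochberg over 32978 clusters). Bambi was higher in HSC by 0.89 (SE 0.18), 1.86-fold, with a limma adjusted p of 0.00138. In this comparison 23.3% of clusters were called, 12.8% higher in HSC. Within genotypes Dusp4 was called in each, with differences of 2.14 in WT, 1.704 in alphaKO, 1.87 in deltaKO and 2.14 in DKO and limma adjusted p of 0.00876, 0.0155, 0.0119 and 0.00312. The alphaKO call was lost without HSC alphaKO replicate 1 (adjusted p 0.0806) or LMPP alphaKO replicate 3 (0.105), and the deltaKO call without HSC deltaKO replicate 2 (0.0900) or LMPP deltaKO replicate 3 (0.0540). Clusters called in these comparisons were 8.46% of all in WT, 6.98% in alphaKO, 4.16% in deltaKO and 6.63% in DKO. The authors' table lists Dusp4 as lower in LMPP DKO than in LMPP WT. Its differences in DKO and in WT and its average over genotypes use those arrays and are not independent of that listing.

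Bambi was called in WT alone among the genotypes, at 1.94 (limma adjusted p 0.00561), with 0.72, 0.16 and 0.76 in alphaKO, deltaKO and DKO and adjusted p from 0.266 to 0.888. In WT and in alphaKO all HSC arrays were above all LMPP arrays for Bambi, and in deltaKO and DKO they overlapped. The WT difference was larger than the deltaKO difference, with an interaction of cell type and genotype (deltaKO minus WT) of -1.78 that did not pass (limma, unadjusted p 0.00359, adjusted p 0.587, 0.0121% of clusters called). The authors' table lists Bambi as lower in the LMPP WT arrays than in LMPP alphaKO. The WT difference, this interaction and the average of Bambi over genotypes use those WT arrays and are not independent of that listing. With array weights neither Dusp4 (adjusted p 0.166) nor Bambi (adjusted p 0.216) was called in WT. Spry2 differed by -0.47 (95% interval -1.02 to 0.07, limma adjusted p 0.210). Its 12 HSC arrays ran from 8.61 to 11.13 with a median of 9.87, and its 11 LMPP arrays from 8.70 to 11.67 with a median of 10.65, so the cell types overlapped over most of their range.

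**Figure D1:**
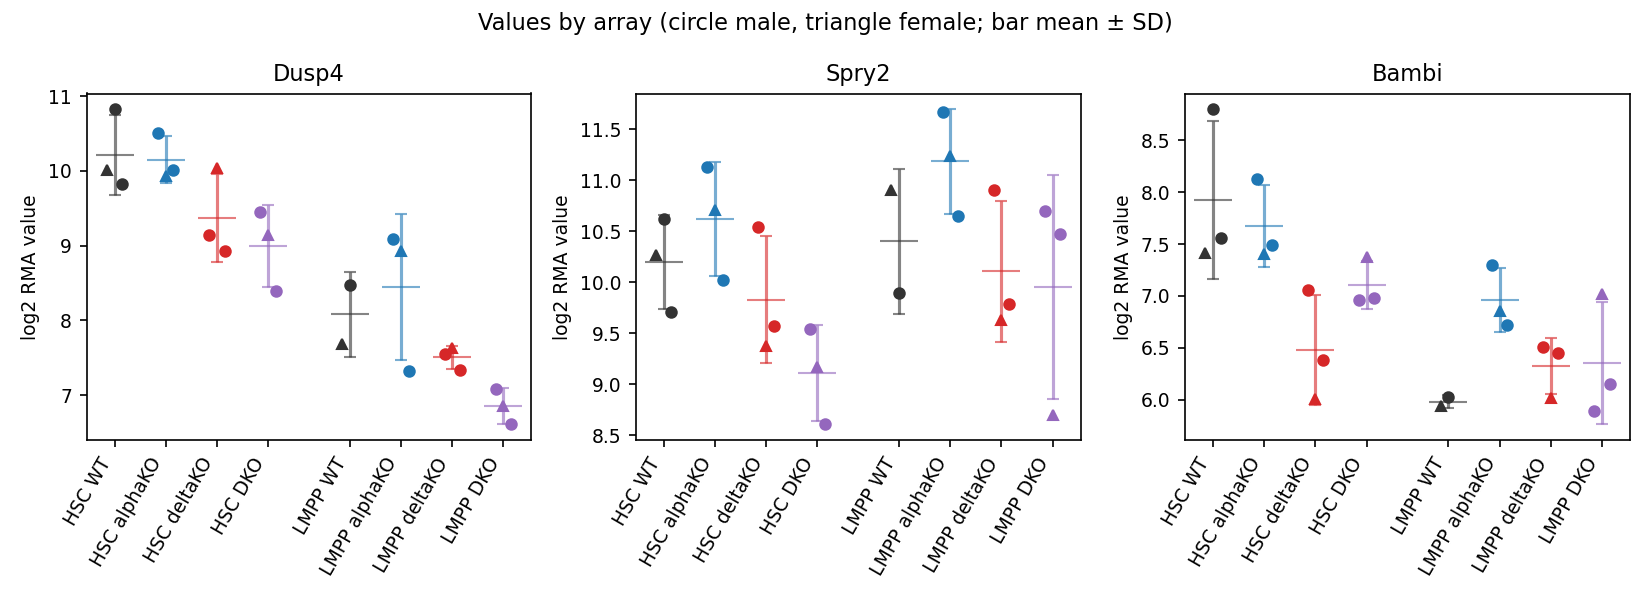
Log2 RMA value of Dusp4, Spry2 and Bambi on each of the 23 arrays by cell type and genotype (circles male, triangles female samples, bars mean ± SD, n = 3 or, for LMPP WT, 2). Dusp4 is lowest in LMPP DKO, at 6.61 to 7.09, and Bambi in HSC deltaKO and DKO lies below every HSC array that keeps p110δ.

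Dusp4 had lower means in the groups without p110δ in both cell types. In HSC deltaKO it measured 9.15, 10.04 and 8.93, and in HSC DKO 9.45, 9.14 and 8.39. HSC deltaKO replicate 2 lay among the WT and alphaKO arrays, and the other 5 lay below all of them. In LMPP deltaKO Dusp4 measured 7.54, 7.64 and 7.34, and in LMPP DKO 7.09, 6.86 and 6.61. The 3 LMPP DKO arrays were below every other LMPP array, while LMPP alphaKO replicate 3, at 7.32, lay just under the deltaKO arrays.

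The 4 genotypes form a 2 by 2 design, so loss of p110δ was tested as the mean of deltaKO minus WT and DKO minus alphaKO. For Dusp4 it was -0.998 in HSC (SE 0.26, 95% interval -1.58 to -0.42) and -1.08 in LMPP (SE 0.32, 95% interval -1.79 to -0.38). With limma adjusted p of 0.170 and 0.234 neither passed over all clusters, where 0.291% of clusters were called in HSC and 0.631% in LMPP. By the exact permutation test over arrays, two-sided and 1 of 6 such tests run, the means with and without p110δ gave p = 0.0108 in HSC (6 arrays against 6). In LMPP the DKO and WT arrays through which the authors' table lists Dusp4 enter this effect, so its LMPP value is a description and not independent evidence. Leaving out 1 LMPP array at a time gave LMPP differences from -1.36 to -0.88. The threshold was passed only without LMPP alphaKO replicate 3, the lowest LMPP array with p110δ (-1.36, limma adjusted p 0.0455). That pass is a description too. With all arrays the difference between HSC and LMPP in the effect of p110δ loss was 0.08 (95% interval -0.82 to 0.99, limma adjusted p 0.976).

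Averaging the effect over both cell types as well, a comparison chosen after seeing the data, gave -1.04 for Dusp4 (SE 0.21, 95% interval -1.49 to -0.59). Dusp4 thus fell by 1.04 on the log2 scale, or 2.06-fold, with a limma adjusted p of 0.0112 in a comparison that called 3.35% of clusters. This average also includes the LMPP DKO and WT arrays through which Dusp4 was listed, so the call is not independent of that choice. The fit takes the 23 arrays as independent, and no label says whether an HSC and an LMPP array of like genotype share a pool of animals. Without LMPP WT replicate 2 and HSC WT replicate 3, the arrays of lowest correlation, the value was -0.99 with an adjusted p of 0.0431. Without HSC WT replicate 2 as well, the highest HSC array for Dusp4 and for the stress genes described below, 1 WT array is left in each cell type and the value was -0.89 with an adjusted p of 0.132. Leaving out any 1 array kept it between -1.18 and -0.94, with adjusted p of at most 0.0457. In the same comparison Spry2 was at -0.85 (SE 0.26, adjusted p 0.0845) and Bambi at -0.57 (SE 0.18, adjusted p 0.0989). The arrays through which the authors list Spry2 and Bambi enter these values too, so they are not independent evidence.

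For Spry2 the sequence printed here is the 250 bases before its RefSeq start (GRCm38.p6, chr14:105896820-105897069, minus strand, written 5′ to 3′), the window in which binding motifs of signal-dependent factors were searched.

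Spry2: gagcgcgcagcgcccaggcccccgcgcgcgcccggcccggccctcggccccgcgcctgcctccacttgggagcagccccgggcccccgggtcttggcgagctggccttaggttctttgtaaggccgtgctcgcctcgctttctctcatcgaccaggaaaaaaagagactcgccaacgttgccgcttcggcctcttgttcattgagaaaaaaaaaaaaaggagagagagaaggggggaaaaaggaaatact

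This window is 62.4% G or C, against a median of 52.4% over 32851 RefSeq promoter windows of the same length. Read on both strands, it holds no match to the AP-1 motif TGANTCA, which 6.75% of windows hold, to the cyclic AMP response element TGACGTCA, held by 1.55%, or to the forkhead motif GTAAACA, held by 3.17%. It also holds no E-box CACGTG (6.02% of windows), no ETS motif CCGGAAG (6.91%) and no GGCGCC (9.59%), so no base is capitalised. These letters are absent from this window and nothing follows from that for the factors.

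Spry2 had its lowest mean in HSC DKO. It measured 10.27, 10.62 and 9.71 in HSC WT, and 11.13, 10.71 and 10.03 in HSC alphaKO. In HSC deltaKO it measured 10.55, 9.38 and 9.57, and in HSC DKO 9.55, 9.17 and 8.61. The DKO arrays were below every WT and every alphaKO array, while deltaKO overlapped both. A separation in that direction from alphaKO was shown by 4.51% of clusters. In LMPP it measured 10.91 and 9.90 in WT and 11.67, 11.24 and 10.65 in alphaKO. In LMPP deltaKO it measured 10.90, 9.63 and 9.79, and in LMPP DKO 10.70, 8.70 and 10.47. The LMPP groups overlapped, with LMPP DKO replicate 2 far below the other LMPP DKO arrays.

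Loss of p110δ gave Spry2 a value of -0.94 in HSC (SE 0.28, limma adjusted p 0.213) and of -0.76 in LMPP (SE 0.42, limma adjusted p 0.500). The pooled LMPP arrays without p110δ differed from those with it by -0.84 (exact permutation p = 0.0909). The limma effect of p110δ loss differed between the cell types by -0.18 (95% interval -1.27 to 0.92, limma adjusted p 0.954). In HSC DKO against WT Spry2 was at -1.09 (SE 0.39, adjusted p 0.514), and in DKO against alphaKO at -1.51 (SE 0.39, adjusted p 0.499), where 0.0121% of clusters were called. The first of these is the comparison in which the authors' table lists Spry2, so neither it nor the HSC values for p110δ loss and for DKO against alphaKO, which share its arrays, are independent evidence of direction. In the authors' deposited table the averages were 9.12 in DKO and 10.22 in WT, with a fold of -2.14, a p-value of 0.0451 and an FDR p-value of 0.785.

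Bambi was lower in every HSC array without p110δ than in every HSC array with it. It measured 7.42, 8.80 and 7.55 in HSC WT and 8.13, 7.40 and 7.49 in HSC alphaKO. In HSC deltaKO it measured 7.05, 6.01 and 6.38, and in HSC DKO 6.96, 7.37 and 6.98. The margin was small, with HSC DKO replicate 2 just under HSC alphaKO replicate 2, and 0.34% of clusters showed the same separation in that direction. Loss of p110δ gave -1.01 (SE 0.27, 95% interval -1.60 to -0.41), and the exact permutation test gave p = 0.00216, the smallest it can give with 6 arrays against 6. Over all clusters the limma adjusted p was 0.172, so Bambi did not pass there. HSC alphaKO replicate 2, which enters this test, is also among the arrays behind the authors' Bambi entry described below.

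In LMPP the Bambi values were 5.93 and 6.03 in WT and 7.30, 6.86 and 6.72 in alphaKO. They were 6.50, 6.01 and 6.45 in deltaKO and 5.89, 7.01 and 6.15 in DKO, so that among the knockouts alphaKO alone stood clear of WT, as 22.1% of clusters did in either direction. LMPP WT and alphaKO arrays are behind the authors' Bambi entry described below, so comparisons that use them are not independent of it. Loss of p110δ gave -0.13 in LMPP (95% interval -0.62 to 0.35, limma adjusted p 0.827). The exact permutation test compared pooled LMPP arrays without and with p110δ, which differed by -0.23 (p = 0.442). The difference of -0.87 between HSC and LMPP in the limma effect of p110δ loss (95% interval -1.64 to -0.10) had an unadjusted p of 0.0285 and a limma adjusted p of 0.704, in a comparison that called 0.0334% of clusters. The reference gene table also lists a transcribed pseudogene, Bambi-ps1, and whether the array separates its RNA from that of Bambi was not tested.

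**Figure D2:**
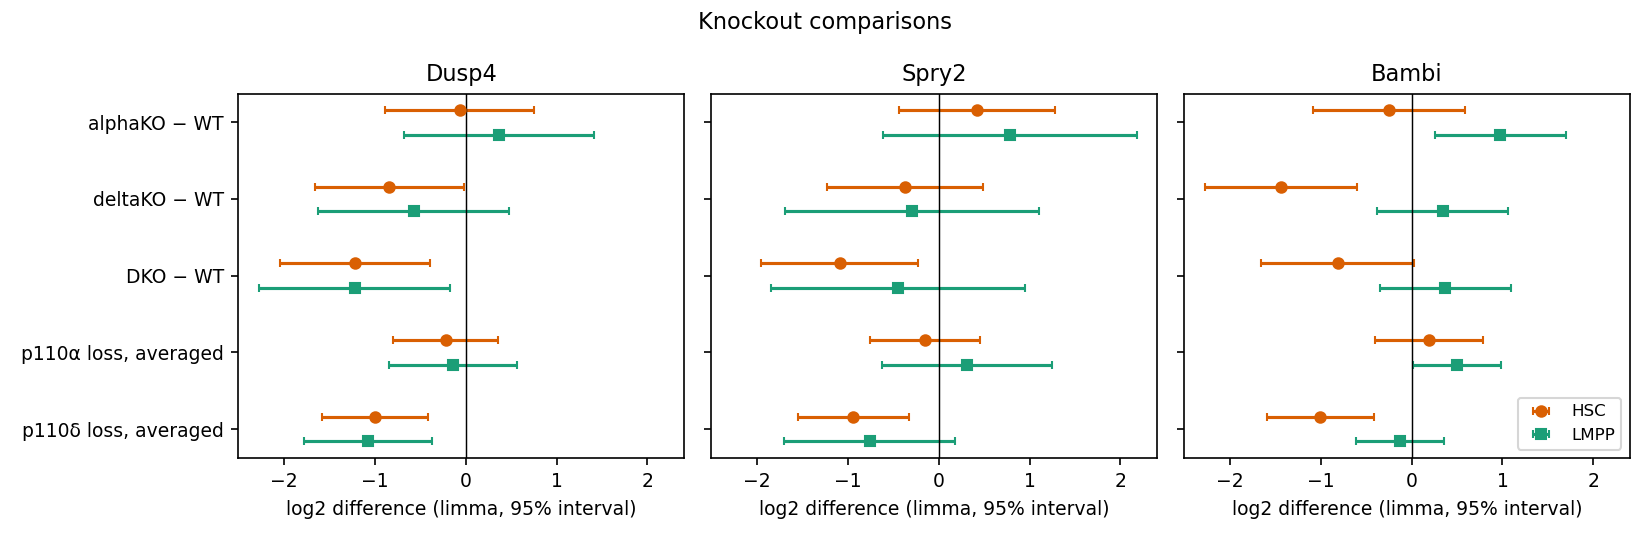
Log2 differences with 95% intervals from limma for the knockout comparisons with WT and for the losses of p110α and p110δ averaged over the other isoform (circles HSC, squares LMPP). The intervals for loss of p110δ lie below 0 for all 3 genes in HSC and for Dusp4 in LMPP, and no value passed after adjustment over all clusters.

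In comparisons with WT none of the 3 genes passed in either cell type by limma. In HSC deltaKO the values were -0.84 for Dusp4, -0.37 for Spry2 and -1.44 for Bambi, with adjusted p of 0.589, 0.824 and 0.369. The Bambi arrays of HSC deltaKO lay below those of WT, as did those of 4.11% of clusters. An unadjusted p below 0.05 was reached by 2 of the 3 genes in HSC deltaKO, 2 in HSC DKO, 1 in LMPP DKO and 0 in LMPP deltaKO, and by Bambi alone in LMPP alphaKO. That threshold was passed by 8.37%, 8.44%, 14.2% and 12.2% of clusters in these comparisons and by 8.73% in LMPP alphaKO. In HSC DKO Dusp4 was at -1.22 (SE 0.37, adjusted p 0.438) and Bambi at -0.82 (SE 0.38, adjusted p 0.603). All 3 genes separated from WT there, as did 5.12% of clusters in that direction. The percentages of clusters called were 0.0091% in each of HSC deltaKO and HSC DKO, 0.388% in LMPP deltaKO and 0.0% in LMPP DKO. In LMPP deltaKO the values were -0.57, -0.30 and 0.34 and in LMPP DKO -1.23, -0.45 and 0.37, for Dusp4, Spry2 and Bambi. Dusp4 separated from WT in LMPP deltaKO, as did 8.97% of clusters, and DKO separated from deltaKO, as did 5.32%. These comparisons share the WT arrays of their cell type. The authors list Spry2, Dusp4 and Bambi through HSC DKO, LMPP DKO and LMPP alphaKO against WT, so those values are not independent evidence.

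Dusp4 carries its name through the authors' table of LMPP DKO against WT, and that comparison is therefore not independent evidence either. The authors' deposited table gives averages of 6.85 and 8.08, a fold of -2.34, a p-value of 0.0383 and an FDR p-value of 0.682. The separation of LMPP DKO from WT, which 12.4% of clusters showed in that direction, was also present against alphaKO, a comparison that uses the same DKO arrays and so is not independent either. There Dusp4 was at -1.59 (SE 0.42, limma adjusted p 0.749, 0.00606% of clusters called), and 6.02% of clusters separated that way. In HSC the same comparison of DKO with alphaKO gave -1.15 for Dusp4 (SE 0.37, limma adjusted p 0.708) and -0.57 for Bambi.

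Loss of p110α gave no call for any of the 3 genes. Averaged over p110δ status the values in HSC were -0.22 for Dusp4 (95% interval -0.80 to 0.36), -0.15 for Spry2 (95% interval -0.76 to 0.46) and 0.19 for Bambi (95% interval -0.41 to 0.78). In LMPP they were -0.14 for Dusp4 (95% interval -0.85 to 0.56), 0.31 for Spry2 (95% interval -0.62 to 1.25) and 0.50 for Bambi (95% interval 0.02 to 0.99). Limma called 0 clusters in either, with 1326 and 2353 at an unadjusted p below 0.05. Against HSC WT, alphaKO was at -0.07 for Dusp4, 0.42 for Spry2 and -0.25 for Bambi. Against LMPP WT it was at 0.37, 0.78 and 0.98. The LMPP values of Bambi, 0.50 and 0.98, use arrays behind its entry in the authors' table, described below, and are not independent evidence.

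The interaction of both losses (DKO minus alphaKO minus deltaKO plus WT) did not pass for any of the 3 genes by limma, with unadjusted p from 0.0547 to 0.569. It was -0.31 for Dusp4, -1.14 for Spry2 and 0.88 for Bambi in HSC, and -1.02, -0.93 and -0.95 in LMPP. For DKO against deltaKO the values were -0.38, -0.72 and 0.63 in HSC and -0.65, -0.15 and 0.03 in LMPP. The effect of p110α loss differed between HSC and LMPP by -0.08 for Dusp4, -0.47 for Spry2 and -0.32 for Bambi, with limma adjusted p of 0.744 to 0.959.

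The Bambi entry in the authors' table of LMPP alphaKO against WT rests on an HSC array. The authors' deposited table gives a Bambi average of 7.34 in alphaKO and 5.98 in WT, with a fold of 2.57. Tukey's biweight over HSC alphaKO replicate 2 and the first 2 LMPP alphaKO arrays was 7.34, and this set of arrays matched 100% of the 299 deposited alphaKO averages within 0.006. The 3 arrays labelled LMPP alphaKO matched 14.0% of them and gave Bambi 6.87, a fold of 1.85, below the 2-fold limit of the deposited tables. As Bambi was higher in HSC, at 7.40 on that array, its place in the table depended on the HSC array. The deposited HSC alphaKO averages match the arrays labelled HSC alphaKO, that one included. With the labelled arrays Bambi in LMPP alphaKO was at 0.98 (SE 0.32, limma adjusted p 0.553), in a comparison that called 0.0% of clusters. The LMPP WT arrays and the first 2 LMPP alphaKO arrays stand behind the entry as well, so this value is not independent evidence.

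**Figure D3:**
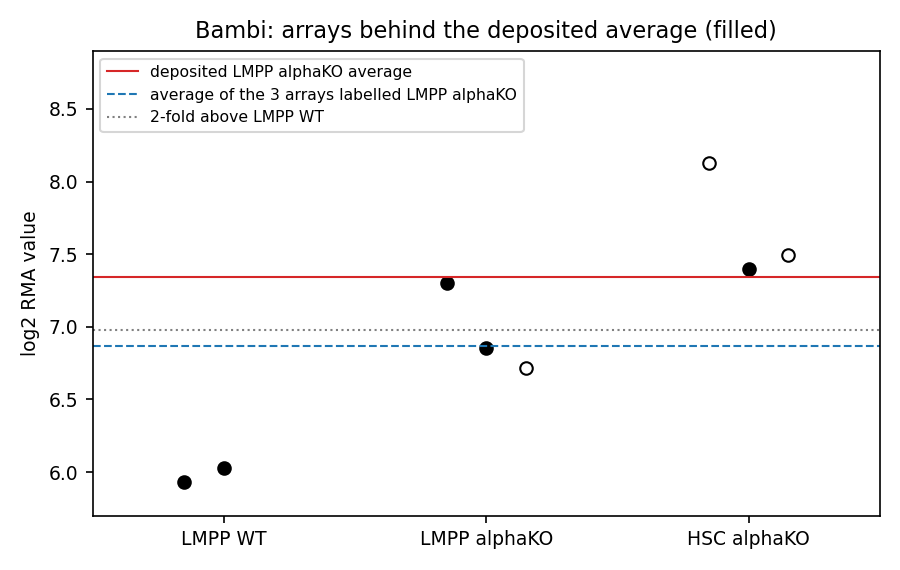
Bambi log2 RMA value on the arrays of LMPP WT, LMPP alphaKO and HSC alphaKO. Filled points are the arrays whose biweight averages equal the deposited ones, and the solid line (7.34) lies above and the dashed line of the labelled arrays (6.87) below the dotted 2-fold limit.

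The named genes of the ERK pathway had values for p110δ loss of the same sign as Dusp4 and Spry2, and few passed within a cell type. Of 68 ERK feedback and target genes listed, 9 could be named, namely both members and 7 others that were tested. The 7 were Dusp10, a phosphatase of p38 and JNK kinases, Fosl2, an AP-1 subunit, the immediate early transcription factor genes Nr4a1, Klf2 and Klf4, Plaur, the urokinase receptor gene, and Ptgs2, which encodes cyclooxygenase-2. All 7 had negative values, with a median of -1.17 in HSC and -1.28 in LMPP, against medians of 0.02 and 0.04 over all clusters. Against 0.291% of all clusters called in HSC, 1 of 7 passed, as Ptgs2 fell by 1.07 (SE 0.16, limma adjusted p 0.0329), and against 0.631% in LMPP, 1 of 7 passed, as Plaur fell by 2.22 (SE 0.18, adjusted p 0.00623). Nr4a1 was at -1.51 in HSC and -1.73 in LMPP, with adjusted p of 0.0568 and 0.0512.

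Averaged over both cell types, where 3.35% of clusters were called, 5 of the 7 passed. These were Ptgs2 at -1.05, Nr4a1 at -1.62, Plaur at -1.700, Klf4 at -1.35 and Dusp10 at -0.65, with limma adjusted p from 0.000795 to 0.0467. Fosl2 was at -1.33 (adjusted p 0.0511) and Klf2 at -0.57 (adjusted p 0.108). Without LMPP WT replicate 2 and HSC WT replicate 3, 6 of 7 passed over both cell types, and without HSC WT replicate 2 as well, 3 of 7 (Nr4a1, Plaur and Ptgs2). Under either choice, made after seeing the data, 0 passed in HSC and Plaur alone in LMPP, and all 7 values were negative in each. With p110α loss the median of the 7 was -0.03 in HSC and -0.25 in LMPP, and limma called 0. The named genes were listed by the authors because they differed from WT on these arrays, so the list is not independent evidence of its direction.

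**Figure D4:**
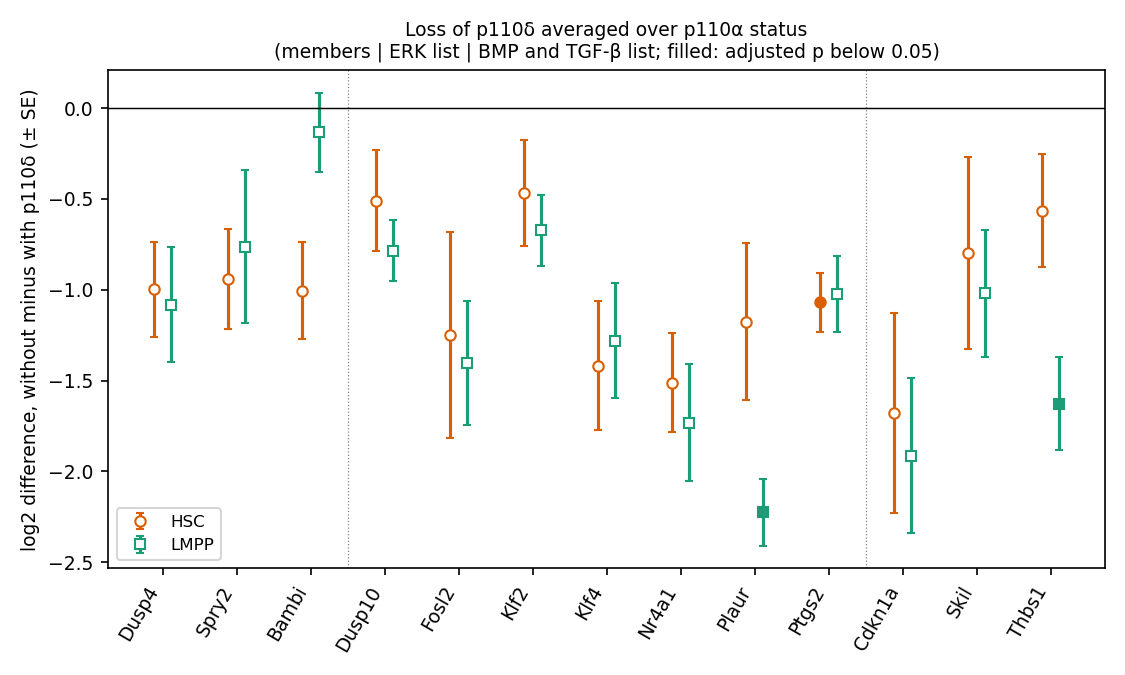
Log2 difference between arrays without and with p110δ (± SE, limma) in HSC (circles) and LMPP (squares) for the 3 members, 7 ERK genes and 3 genes of the BMP and TGF-β list. Filled symbols passed the threshold, and all points lie below 0, with Bambi in LMPP nearest to it at -0.13.

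Of 47 genes of the BMP and TGF-β pathway, 3 besides Bambi could be named and tested. They were Skil, which encodes the SMAD corepressor SnoN, Thbs1, which encodes thrombospondin-1, an activator of latent TGF-β, and Cdkn1a, the gene of the cell cycle inhibitor p21. Values for p110δ loss in HSC were -0.80 for Skil, -0.56 for Thbs1 and -1.68 for Cdkn1a. By limma 0 of 3 passed, with unadjusted p of 0.0114 to 0.160, where 0.291% of all clusters were called. In LMPP, where 0.631% of clusters were called, Thbs1 fell by 1.63 (SE 0.26, limma adjusted p 0.0258). Skil at -1.02 and Cdkn1a at -1.91 were not past the threshold. Averaged over both cell types, where 3.35% of clusters were called, Cdkn1a was at -1.80 and Thbs1 at -1.10, with limma adjusted p of 0.0120 and 0.00954. Skil was at -0.91 (adjusted p 0.167). Without LMPP WT replicate 2 Thbs1 was not called in LMPP. Over both cell types Cdkn1a and Thbs1 were called without the 2 arrays of lowest correlation, and 0 of 3 without HSC WT replicate 2 as well. The authors listed these 3 genes because they differed from WT on these arrays, so their calls and shared sign are not independent evidence. No member of the Wnt list besides Bambi could be named.

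Of 24 genes of the PI3K, AKT and FOXO feedback list 8 were named and tested. Their medians for p110δ loss were -0.11 in HSC and -0.02 in LMPP, against 0.02 and 0.04 over all clusters. These genes too were listed by the authors because they differed from WT on these arrays, so their values are not independent evidence. Limma called 0.291% of all clusters in HSC and 0.631% in LMPP. In HSC 0 of 8 passed. In LMPP 1 of 8 passed, as the pseudokinase gene Trib1 fell by 1.46 (SE 0.25, limma adjusted p 0.0375, not called without LMPP WT replicate 2), while the mTOR inhibitor gene Deptor was at 0.63 (adjusted p 0.0841) and Sesn1, a stress response gene, at 0.85 (adjusted p 0.244). Averaged over both cell types, where 3.35% of clusters were called, 2 rose and 1 fell. These were Deptor at 0.40 (limma adjusted p 0.0121), Sesn1 at 0.58 (adjusted p 0.0415) and Bcl6, a transcriptional repressor gene, at -0.45 (adjusted p 0.0234). Without the 2 arrays of lowest correlation Deptor and Bcl6 were called, and without HSC WT replicate 2 as well Deptor alone.

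The mean of the named genes of handling and dissociation stress separated arrays with p110δ from those without. Among the members only Bambi in HSC did so, as did 0.34% of single clusters there, lower without p110δ. Singly, Ddit3 overlapped in HSC, at 9.22 on alphaKO replicate 2 and 9.87 on deltaKO replicate 1. Of 20 listed 5 were named (Ddit3, Gadd45a, Gadd45b, Nr4a1 and Klf4), of which Nr4a1 and Klf4 are also in the ERK list. Their mean log2 value was 11.39 to 13.05 on HSC arrays with p110δ and 10.74 to 11.36 without, and 11.41 to 12.39 on LMPP arrays with p110δ and 10.21 to 10.98 without. HSC WT replicate 2, the highest array for Dusp4 and Bambi in HSC, was also the highest for this list, at 13.05, with Ddit3 at 11.80 and Gadd45b at 12.51. Without that array the p110δ effect in HSC was -0.85 for Dusp4 and -0.79 for Bambi. In LMPP the mean of 10 of 16 neutrophil and monocyte genes was 13.56 to 15.77 with p110δ and 8.78 to 14.55 without, and Jchain, the single named B and plasma cell gene of 8, was at 6.36 to 11.001 and 4.74 to 5.88. In LMPP the neutrophil and monocyte ranges overlapped and those of Jchain did not. In HSC both overlapped, at 6.30 to 9.40 and 6.47 to 10.23 for the neutrophil and monocyte genes. In LMPP 2 of 9 mast cell and basophil genes had a mean of 8.09 to 9.98 with p110δ and 6.47 to 10.24 without, and 2 of 8 macrophage genes 6.38 to 7.16 and 4.64 to 7.23. The named genes of these stress and cell type lists, Jchain included, were listed by the authors because they differed from WT on these arrays. Their separations are therefore not independent evidence. The share of clusters that separated so in LMPP is not given here. The part of handling stress or of other cells in the Dusp4, Spry2 and Bambi values was not tested.

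Among 279 other named genes, those with a pattern over the 8 group means most like that of Dusp4 were Skil (r = 0.97), Tiparp, an ADP-ribosyltransferase gene (0.94), Ptgs1, the cyclooxygenase-1 gene (0.93), Irf2bpl (0.91) and Sik1, a salt-inducible kinase gene (0.90). Around the group means, on the arrays of 1 cell type, Skil and Dusp4 had r = 0.80 in HSC (12 arrays) and 0.78 in LMPP (11 arrays), whereas Ptgs1 and Dusp4 had -0.30 and 0.08. For Spry2 the genes were Plaur (0.86), Trib1 (0.83), Ptgs2 (0.78), Il1r2 (0.77) and Plk2 (0.75), and Trib1 had r = 0.71 in HSC and 0.74 in LMPP around the group means. For Bambi they were Irf2bpl (0.94), Wdr5b (0.86), the insulin receptor substrate gene Irs2 (0.84), Dusp4 (0.81) and Tiparp (0.81), and Irf2bpl had 0.80 in HSC and -0.48 in LMPP around the group means. These are descriptions, as the points share arrays and each group mean rests on 2 or 3 of them.

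The members differed in the order of their group means. Dusp4 ran from HSC WT (10.22 ± 0.53, SD, n = 3) through HSC alphaKO, deltaKO and DKO to LMPP alphaKO, WT, deltaKO and DKO (6.85 ± 0.24, SD, n = 3). Among neighbours in that order only LMPP WT and deltaKO, and LMPP deltaKO and DKO, had arrays that did not overlap. Spry2 ran from LMPP alphaKO (11.19 ± 0.51, SD, n = 3) to HSC DKO (9.11 ± 0.47, SD, n = 3) with every pair of neighbours overlapping. Bambi ran from HSC WT (7.92 ± 0.76, SD, n = 3) to LMPP WT (5.98 ± 0.07, SD, n = 2), and its neighbours separated only between HSC alphaKO (7.67 ± 0.40, SD, n = 3) and HSC DKO (7.11 ± 0.23, SD, n = 3). Around the group means Spry2 and Bambi had r = 0.68 (Spearman 0.50) on the HSC arrays and -0.37 (Spearman -0.15) on the LMPP arrays, and Dusp4 and Spry2 had 0.39 and 0.19.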

How the data were processed

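Values are log2 RMA signals for transcript clusters of a mouse whole-transcriptome array, which the authors computed in Expression Console according to the labels. The submitters' processing notes name Affymetrix Expression Console and Transcriptome Analysis Console. Tool versions and the genome build are not stated in those notes. The authors' comparison tables give, per the file headers, log2 biweight averages, signed linear fold changes, whose score is negative where the knockout is lower, and p-values with and without FDR adjustment. No other table was used. Of 72688 features 6732 array controls were left out, and 32978 clusters with a mean at or above the median (log2 4.95) were tested with limma 3.58.1 in R 4.3.3. The model held a mean for each genotype within a cell type, and all 8 groups where cell types were compared, with arrays taken as independent. A cluster was called at a Benjamini-Hochberg adjusted p under 0.05 over all those tested. The fits were tested on simulated data. Exact permutation tests used scipy 1.17.1 in Python 3.11.15. Only genes with 1 symbol in a deposited table can be named.

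The members, lists and comparisons were chosen with earlier results of these data known. Genes of each pathway list were named by the smallest unadjusted p for p110δ loss, up to 6 for each cell type, and Klf2 and Sesn1 come in through the PI3K list. Genes alike a member were the 5 with the highest r over group means. Precision is limited by the number of arrays. Alternatives covered the filter, normalization, variance model, array weights, sex, arrays in the fit, identical clusters and each replicate.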

Additional observations from a re-analysis of the deposited data

How the results depend on the processing

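Over 72 results and 1521 alternatives, 1460 kept direction and side of the threshold, 48 reversed, 10 lost a call and 3 gained one. The HSC against LMPP calls averaged over genotypes held in all alternatives run, at 1.82 to 2.11 for Dusp4 and 0.78 to 0.98 for Bambi. The cause of the changes below was not tested.

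Averaged over cell types, p110δ loss gave Dusp4 -0.89 (adjusted p 0.132) without LMPP WT replicate 2 and HSC WT replicates 2 and 3 (the 3 WT arrays, chosen after seeing the data), and Spry2 -0.90 (adjusted p 0.0490) after quantile normalization. Leaving out each replicate gave Bambi -0.65 to -0.46, called without LMPP DKO replicate 2 (adjusted p 0.0420), and Dusp4 in LMPP -1.36 to -0.88. These Spry2 and Bambi calls use arrays through which the authors list those genes and are not independent evidence. Within genotypes the Dusp4 difference between cell types lost its call in alphaKO and deltaKO without 1 of 2 replicates each, with adjusted p up to 0.105 and 0.0900, and in WT without the 3 WT arrays (adjusted p 0.1998; Bambi 0.318). Without the 2 of these with the lowest correlation Dusp4 averaged over cell types was still called (adjusted p 0.0431), and Bambi in WT was not (adjusted p 0.0525).

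Reversed values belonged to uncalled results. For HSC minus LMPP, Spry2 in WT was 0.038 with arrays centred on their medians. The p110α effect of Dusp4 was 0.062 after quantile normalization, and its p110δ effect -0.022 with centring, -0.0098 without the 3 WT arrays and -0.21 without the 2 of lowest correlation. Without the 3, that of Spry2 was 0.040. Without those arrays HSC alphaKO minus WT was 0.26 for Bambi and 0.14 for Dusp4, and p110α loss in LMPP 0.055 for Dusp4 (0.074 with array weights). With array weights LMPP DKO minus deltaKO was -0.23 for Bambi and 0.18 for Spry2.

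Leaving out each replicate, HSC minus LMPP in deltaKO spanned -0.13 to 0.40 for Bambi and -0.63 to 0.12 for Spry2, and in WT -0.71 to 0.30 for Spry2. HSC minus LMPP of p110α loss spanned -0.36 to 0.12 for Dusp4, and of p110δ loss -0.12 to 0.37 for Dusp4 and -0.49 to 0.074 for Spry2. HSC alphaKO minus WT spanned -0.50 to 0.19 for Bambi and -0.27 to 0.24 for Dusp4, the HSC interaction -0.61 to 0.026 for Dusp4, and p110α loss in HSC -0.28 to 0.027 for Spry2. In LMPP, alphaKO minus WT spanned -0.033 to 0.93 for Dusp4, deltaKO minus WT -0.80 to 0.21 for Spry2 and DKO minus WT -0.95 to 0.18 for Spry2. DKO minus deltaKO spanned -0.30 to 0.26 for Bambi and -0.52 to 0.48 for Spry2, and p110α loss -0.34 to 0.14 for Dusp4.

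Counts of clusters called for p110δ loss ranged from 1 to 193 in HSC (96 with all arrays), from 3 to 3578 in LMPP (208) and from 336 to 3834 over cell types (1104). The extremes came without the 3 WT arrays and HSC WT replicate 1 in HSC, without LMPP alphaKO replicate 2 and LMPP WT replicate 1 in LMPP, and without the 3 WT arrays and LMPP WT replicate 1 over cell types.

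No paired analysis was run, as the labels give the groups no shared replicate numbers. Apart from HSC WT replicate 3, each HSC array is numbered next to an LMPP array of its genotype and sex. No label says whether such neighbours share a pool, and no fit with correlated arrays was run. Signal over background was not analysed here.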
